A study of Mus musculus with 3 samples.

Results

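The MYC family was described here across the open chromatin of long-term hematopoietic stem cells (LT-HSCs) of old mice, together with the stretch of open chromatin that lies far downstream of Myc. The 8 genes were Myc, Mycn, Mycl, Max, Mxd1, Mxd4, Mxi1 and Mnt, chosen by name out of 31451 annotated gene models, and all 8 were found and counted. For Myc, 4000 windows of 500 bp running 2 Mb downstream of the gene start were added, out of 5263318 such windows on the autosomes and the X chromosome. The cells were LT-HSCs (c-Kit+, Sca-1+ and CD150+, without lineage markers, CD34 or CD48) sorted from the c-Kit-enriched bone marrow of wild-type female C57BL6/J mice 24 months of age, and all groups compared below are subsets of this 1 pool. DOGMA-seq was used, a droplet method that records transposase-accessible DNA (ATAC), RNA and oligonucleotide-tagged surface antibodies in the same cell. Of 4369 called cells, 3724 had antibody counts and 3629 (83.1%) had at least 10 antibody tags and were kept. These cells carried 38498362 nuclear ATAC fragments, with a median of 10287 per cell (range 3853 to 45069), a median of 1978 RNA molecules (UMIs) and a median of 29 tags. With 1 pool there were no replicates, so no test was possible, and every interval given is a 95% interval that covers counting error only.

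MYC proteins are basic helix-loop-helix leucine zipper transcription factors that must pair with MAX to bind the E-box, and as such pairs they drive ribosome production, metabolism and cell division. The MXD proteins and MNT compete for MAX at the same sites and recruit SIN3 repressor complexes, so the balance of the network, rather than MYC alone, sets the output. In blood stem cells MYC is held low at rest and rises when cells divide and leave the niche, and Myc and Mycn act together to keep these cells alive. Myc expression in blood depends on a cluster of enhancers that lies far downstream of the gene, beyond the non-coding gene Pvt1.

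The DNA under the strongest distal sites is shown first, since these are the sites on which the account of Myc turns. For each, the 300 bases with the most fragment ends around the most open window were read from the GRCm38.p6 (mm10) genome, plus strand. Capitals mark matches to any of 6 short words searched on both strands, namely CACGTG for the E-box that MYC and MAX bind, AGATAA for the GATA factors, TGTGGT for the RUNX factors, AGGAAG for the ETS factors, TGACTCA for the AP-1 factors and TGACAG for the MEIS factors. The strongest site, at chr15:63648157-63648456, held 2393 fragment ends, the second, at chr15:63665522-63665821, held 910, and the third, at chr15:63721849-63722148, held 411.
+1662 kb: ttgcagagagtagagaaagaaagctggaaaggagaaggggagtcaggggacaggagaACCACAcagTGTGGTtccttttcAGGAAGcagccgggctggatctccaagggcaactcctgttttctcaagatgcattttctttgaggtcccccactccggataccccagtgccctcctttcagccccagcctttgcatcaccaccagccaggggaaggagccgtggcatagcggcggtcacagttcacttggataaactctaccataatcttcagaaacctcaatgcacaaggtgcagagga
+1680 kb: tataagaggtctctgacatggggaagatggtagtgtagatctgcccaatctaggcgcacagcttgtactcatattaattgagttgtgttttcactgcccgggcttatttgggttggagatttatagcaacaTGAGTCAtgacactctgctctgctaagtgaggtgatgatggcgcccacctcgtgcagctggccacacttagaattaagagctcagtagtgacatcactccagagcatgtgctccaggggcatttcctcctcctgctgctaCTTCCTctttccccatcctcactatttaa
+1736 kb: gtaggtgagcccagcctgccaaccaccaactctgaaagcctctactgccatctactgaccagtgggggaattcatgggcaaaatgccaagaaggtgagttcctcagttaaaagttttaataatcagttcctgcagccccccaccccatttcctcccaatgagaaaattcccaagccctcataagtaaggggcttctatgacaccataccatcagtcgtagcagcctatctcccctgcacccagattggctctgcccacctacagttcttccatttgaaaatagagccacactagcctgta

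In the +1662 kb sequence, the RUNX word stood on the minus strand at bases 58 to 63 and on the plus strand at bases 67 to 72, and the ETS word followed at bases 81 to 86. The +1680 kb sequence held the AP-1 word at bases 132 to 138 and the ETS word at bases 272 to 277, both on the minus strand. No word was found in the +1736 kb sequence. Over the most open 300 bases of each of the 11 distal stretches described below, the RUNX word was in 2, the ETS word in 4, the MEIS word in 4, the AP-1 word in 1, and the GATA and E-box words in 0. Among the 77779 open windows of the genome that lay more than 1 kb from any gene start, the same words were in 27.1% (RUNX), 46.1% (ETS), 19.4% (MEIS), 9.53% (AP-1), 12% (GATA) and 6.44% (E-box) of the 300-base sequences. None of the matches in these sequences overlapped another, and a match describes letters and is no measure of binding.

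Promoters of the family, taken from RefSeq on the same build (250 bases before to 50 after the gene start, in the direction of the gene), were matched for 7 of the 8 genes with 9 sequences, 3 of them for Mxi1. Myc had no entry. The E-box word, the site that MYC:MAX and MXD:MAX pairs recognise, was found in 3 of the 9, those of Max, Mxd4 and Mnt, against 7.15% of all 32851 promoters. These 3 are printed because they hold it, and Mycn because it is the most open promoter of a MYC gene in the table, with capitals marking the same 6 words.
Mycn, chr12:12941787-12942086, minus strand: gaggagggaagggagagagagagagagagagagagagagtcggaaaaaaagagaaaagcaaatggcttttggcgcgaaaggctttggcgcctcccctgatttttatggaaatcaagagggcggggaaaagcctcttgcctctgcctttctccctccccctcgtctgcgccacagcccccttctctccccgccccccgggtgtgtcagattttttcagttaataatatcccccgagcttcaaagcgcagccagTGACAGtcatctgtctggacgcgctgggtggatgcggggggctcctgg
Max, chr12:76962199-76962498, minus strand: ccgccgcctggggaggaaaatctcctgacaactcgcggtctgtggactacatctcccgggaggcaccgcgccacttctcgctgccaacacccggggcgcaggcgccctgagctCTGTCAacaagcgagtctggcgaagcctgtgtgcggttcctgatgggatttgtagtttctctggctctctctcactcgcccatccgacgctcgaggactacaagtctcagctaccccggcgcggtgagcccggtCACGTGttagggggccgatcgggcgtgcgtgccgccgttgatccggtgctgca
Mxd4, chr5:34187661-34187960, minus strand: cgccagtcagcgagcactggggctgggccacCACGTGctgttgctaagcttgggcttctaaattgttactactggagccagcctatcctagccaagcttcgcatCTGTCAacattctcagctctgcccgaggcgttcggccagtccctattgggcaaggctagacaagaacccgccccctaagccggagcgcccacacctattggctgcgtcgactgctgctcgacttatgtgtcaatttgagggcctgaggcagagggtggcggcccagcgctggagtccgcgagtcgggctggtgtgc
Mnt, chr11:74830674-74830973, plus strand: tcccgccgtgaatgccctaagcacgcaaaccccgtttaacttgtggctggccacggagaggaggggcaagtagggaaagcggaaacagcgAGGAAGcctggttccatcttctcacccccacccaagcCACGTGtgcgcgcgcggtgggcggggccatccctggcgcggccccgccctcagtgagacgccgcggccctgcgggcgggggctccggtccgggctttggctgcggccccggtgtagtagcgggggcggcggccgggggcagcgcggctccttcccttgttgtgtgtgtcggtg

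The MEIS word was in the sequences of Mycn, Max, Mxd1 and Mxd4, 4 of the 9, against 19.2% of all promoters. The ETS word was in that of Mnt alone among the members, against 35.4% of all promoters. The promoters were rich in G and C, with a median of 64.0% and a highest value of 76.7% for Mxd1, while the distal sequences had a median of 49.0% and ranged from 40.3% to 53.3%. Over all promoters in the table the median was 52.7%, and over the distant open windows of the genome it was 51.3%.

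The label of the cells was checked against marker genes, by the share of cells with a fragment within 1 kb of the gene start. The stem cell genes had a median of 13.1%, with Kit at 34.7% and Mecom, which has a distant alternative start, at 0.413%. Megakaryocyte genes had a median of 9.74%, erythroid genes 7.22%, and myeloid, B cell and T cell genes 1.21%, 1.27% and 0.551%. The lists of other lineages were uneven. Among B cell genes, Ms4a1 was at 0.0551%, Pax5 at 3.20% and Ebf1 at 11.8%, and among T cell genes, Cd8a was at 0.0827%, Lck at 3.61% and Tcf7 at 15.2%, above the median of the stem cell genes.

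Within 1 kb of the start, the promoters of 3 antagonists, Mnt, Mxd1 and Mxd4, were open in more cells than that of any MYC gene. Among the MYC genes, Myc itself, the broadly expressed member, had 2255 fragments within 1 kb of its start at chr15:61985391 and a fragment in 42.8% of cells (41.2 to 44.5). The neuroblastoma gene Mycn, which can stand in for Myc in stem cells, had 2045 fragments and 39.7% of cells (38.1 to 41.3). Mycl, the member best known from lung tumours and dendritic cells, had 558 fragments and 13.1% of cells (12.1 to 14.3). Within 1 kb the intervals of Myc and Mycn overlapped and both lay above that of Mycl. Within 500 bp of the start they were apart, with 38.7% of cells (37.1 to 40.3) for Myc and 28.2% (26.7 to 29.7) for Mycn.

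Max, the partner that MYC proteins need to bind their site, had a promoter fragment in 34.4% of cells (32.8 to 36.0). Among the antagonists, Mnt, which is widely expressed and pairs with MAX in resting and dividing cells alike, had the highest value of the family within 1 kb, with 4113 fragments and 63.5% of cells (61.9 to 65.1). Mxd1, first described as a gene that comes on as myeloid cells mature, followed with 52.2% (50.5 to 53.8). Mxd4 had 2635 fragments in 1813 of the 3629 cells (48.3% to 51.6%), an interval that overlapped that of Mxd1. Both were above Myc, as the plot of promoter shares shows. The order from high to low within 1 kb was Mnt, Mxd1, Mxd4, Myc, Mycn, Max, Mycl and Mxi1, and neighbours in it had separate intervals except Mxd1 with Mxd4 and Myc with Mycn. The order changed with the width. Within 500 bp, Mxd1 led with 51.5% (49.8 to 53.1), above Mnt with 47.4% (45.7 to 49.0) and Mxd4 with 46.8%, and Max with 32.7% (31.1 to 34.2) was above Mycn. Against all genes, whose median was 3.55%, Mnt was above 99.7% of promoters, Mxd1 above 98.3%, Myc above 95%, Max above 89.6% and Mycl above 66.7%.

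**Figure D1:**
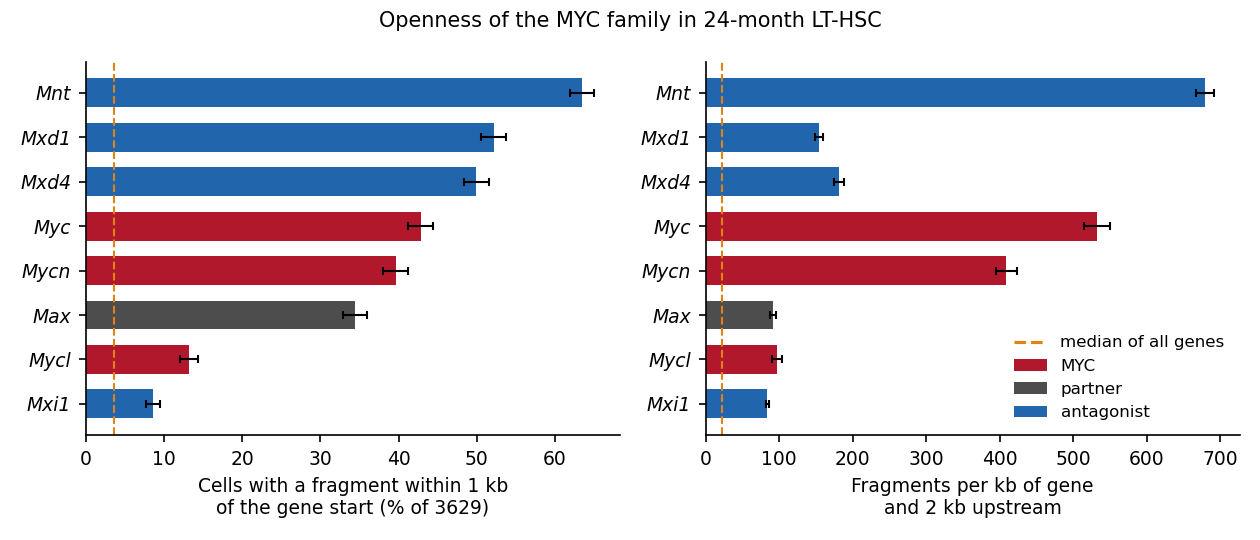
Left, percent of the 3629 cells with at least 1 fragment within 1 kb of the gene start for each member; right, fragments per kb over the gene and 2 kb upstream. Bars are values over the pool, error bars are 95% counting intervals (binomial on the left, Poisson on the right), colours give the role, and the dashed lines are the medians of all genes, 3.55% and 22.7 per kb. Mnt leads on both scales at 63.5% and 679 per kb, while Myc follows Mxd1 and Mxd4 by promoter share and comes next to Mnt per kb. The per kb order also depends on gene length.

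Mxi1, an antagonist of the MXD kind, had a fragment near its annotated gene start in only 8.54% of cells (7.65 to 9.50), the lowest of the family. Several annotated transcripts of Mxi1 begin about 19 kb inside the gene, and 24.3% of cells had a fragment within 250 bp of the start that lies 18943 bp downstream. Measured the same way, its gene start had 5.10% and the strongest start of each other gene had 9.23% (Mycl) to 38.8% (Mxd4). A window centred 3732 bp downstream of the gene start was the most open of the gene at 27.4% of cells.

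Fragments were also counted over the whole gene and 2 kb upstream and divided by that length. Mnt was again highest with 679 fragments per kb (667 to 692), and Myc (532) and Mycn (409) came next. Mxd4 (181), Mxd1 (154), Mycl (96.6), Max (91.4) and Mxi1 (83.6) followed, and all 8 were above the median of all genes, 22.7. This order also depends on gene length, since fragments gather near the start. Before division, Myc had 3715 fragments over 6.98 kb and Mxd1 3713 over 24.1 kb. The distribution within the genes differed. In Mxd4, 91.9% of the fragments lay within 1 kb of the start and in Mxd1 75.5%, so most of their fragments lay at the promoter. In Mnt only 36.0% did, and its most open window, at 47.8% of cells, was centred 1330 bp inside the gene, with 16 of its 35 windows open. Open is used here for a window in which at least 2% of cells had a fragment end, which held for 120104 windows or 2.28% of those of the genome. Of the windows over each gene and its 2 kb, 10 of 14 were open in Myc and 12 of 16 in Mycn, so in these short genes the open chromatin ran over most of the gene.

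Around Myc the open sites were few and far apart. Of the 4000 windows to 2 Mb downstream, 40 (1%) were open, and of the 4000 upstream 27 (0.675%), both below the 2.28% of the genome. Upstream, 15 of the 27 lay between 1100 and 1200 kb from Myc, within Fam84b or next to it. Downstream, the open windows fell into 21 stretches, counted as open windows that touch or leave 1 window between them. The first covered the first 3000 bp of Myc, with 2049 fragments and 40.7% of cells. It was joined on the downstream side only, and the 5 windows just upstream, to −2.5 kb, were open as well, the nearest at 26.3% of cells. The next 7 lay between 52 and 302.5 kb downstream, the first at the start of Pvt1 and the rest inside it, at 3.75% to 10.5% of cells. Pvt1 is a non-coding gene whose promoter competes with that of Myc for enhancers in other cells.

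From there to 1616 kb downstream, over 1313.5 kb, 0 of 2627 windows were open, and the highest had a fragment in 1.68% of cells. At 1616 kb the open windows resumed. Between there and 1786.5 kb lay 19 open windows in 11 stretches, at chr15:63601391-63771890, here called the distal segment. Over all windows, open or not, the 100 kb from 1600 to 1700 kb held 6844 fragments and those from 1700 to 1800 kb held 2999, against 156 to 450 in each 100 kb between 400 and 1600 kb, where a fragment with its ends in neighbouring windows counts in each. The open windows held 4528 fragments, and 68.2% of cells (66.6 to 69.7) had at least 1 fragment in them, while 34.5% had at least 2. Further windows opened at 1910 kb, in an intron of Gsdmc4 (9.42% of cells), and at 1939 kb (3.28%).

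**Figure D2:**
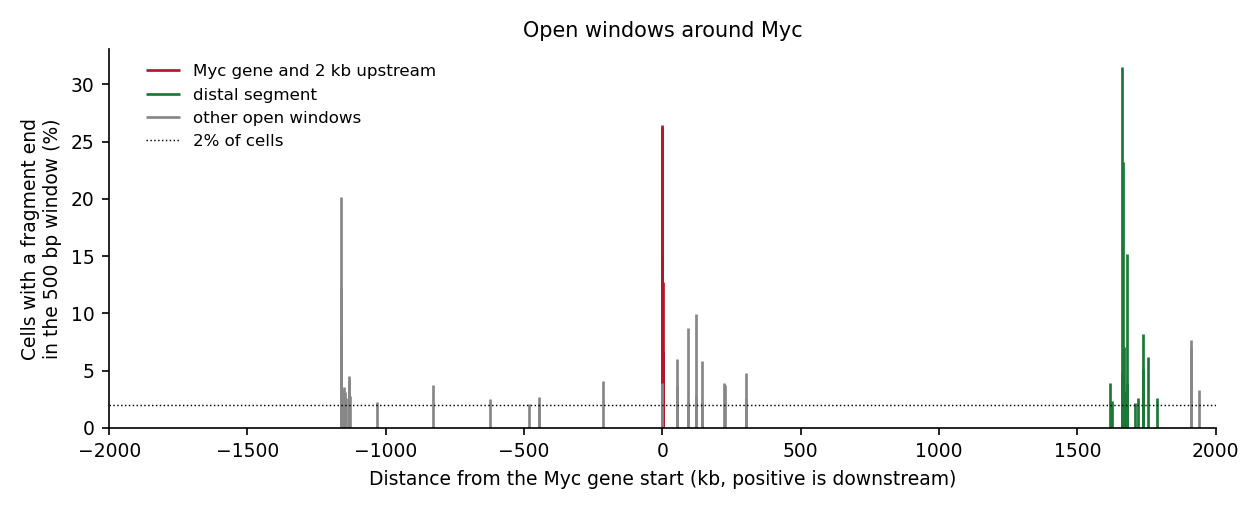
Each vertical line is 1 open window of 500 bp, placed by its distance from the Myc gene start in kb, with its height giving the percent of the 3629 cells that had a fragment end in it; the dotted line marks the 2% that defines an open window, and windows below it are not drawn. The highest line, at 1662.5 kb downstream, reaches 31.5%. The window grid begins at the Myc start and so divides the peak there into lines of 26.3% and 26.4%, and no window between 302.5 and 1616 kb is open.

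The strongest stretch of the distal segment began 1662 kb downstream of the Myc start, at chr15:63647391-63649390, and held 2124 fragments in 42.2% of cells (40.5 to 43.8). Its highest window had a fragment end in 31.5% of cells (30.0 to 33.0), above 98.2% of all open windows of the genome. This is the site whose sequence carries the RUNX word on both strands. By the same count the windows on either side of the Myc start had 26.3% and 26.4%. Counted by overlapping fragments, whether or not an end fell inside, the same width centred on the Myc start had 34.6%. By that wider count Myc with its 2 kb upstream, which takes in the open windows on both sides of its start, had 59.7%. The next strongest stretches were those at 1680 kb with 15.7% of cells (14.6 to 17.0) and at 1736 kb with 11.4% (10.4 to 12.5). Those at 1666.5 kb (7.41%) and 1755 kb (6.14%) came after them, and the remaining 6 had 2.18% to 4.55%. The first stretch thus held 2124 of the 4528 fragments of the segment, and the other 10 shared the rest. Of the 10 most open windows downstream of Myc, 5 lay in the distal segment (those at 1662.5, 1663, 1680, 1736.5 and 1667 kb), 2 in Myc, 2 in Pvt1 (121 kb with 9.92% and 94 kb with 8.68% of cells) and 1 in Gsdmc4.

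Of the 11 stretches, 8 lay in introns of the non-coding gene Gm41335, which runs from chr15:63176838 to 63718289 on the minus strand. The stretch at 1736 kb overlapped an exon of the non-coding gene 4930449C09Rik, the one at 1755 kb lay at the start of the non-coding gene Gm41336, and the one at 1786 kb was intergenic. The promoters of the host genes were close to closed. Gm41335 had a fragment within 1 kb of its start in 0.634% of cells and 4930449C09Rik in 0.744%, while Gm41336, whose start lies beside an open stretch, had 6.83%. The nearest protein-coding genes, Gsdmc, Gsdmc2, Gsdmc3 and Gsdmc4 of the gasdermin family, had 0.0827%, 0%, 0% and 0.358% of cells at their starts. For the genes at 0 cells of 3629, 3 cells or a share of up to 0.0827% would still be allowed by counting error. Fam49b, which begins at 2075 kb, beyond the reach of these windows, had 16.3%.

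Fragments shorter than 120 bp, too short to span a nucleosome, were 46.2% of those at 1662 kb, 48.1% at 1680 kb and 46.7% at 1616 kb, against 31.7% over the Myc start. The stretch at 1736 kb had 21.0%, and that at 1708 kb had the lowest share, 10.7% of 84 fragments.

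**Figure D3:**
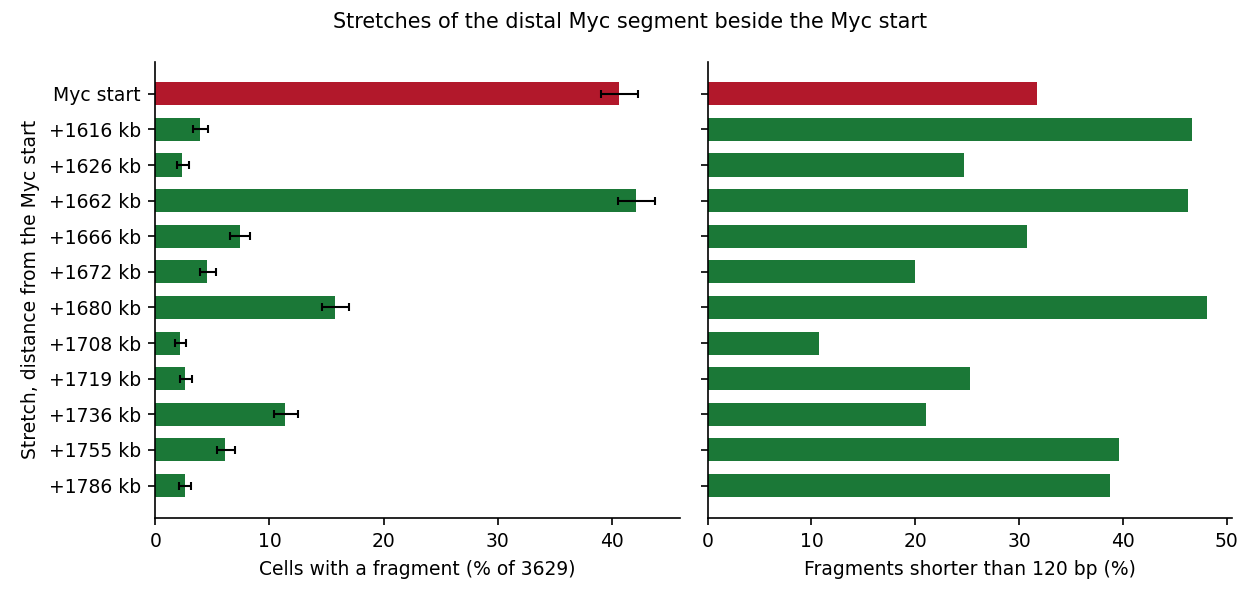
Rows are the stretch over the Myc start and the 11 stretches of the distal segment, named by distance in kb; left, percent of the 3629 cells with at least 1 fragment, with 95% binomial intervals; right, percent of the fragments of each stretch that are shorter than 120 bp. The row of the Myc start holds only its downstream side, at 40.7%. The stretch at 1662 kb is the most open of the distal ones at 42.2%, and 46.2% of its fragments are short, against 31.7% over the Myc start.

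Openness of the Myc promoter and of the distal segment in the same cell was then compared with what their separate shares would give within 10 classes of cells of like depth. In 1081 cells both were open, against 1086.8 expected, a ratio of 0.995 (0.936 to 1.06). For the Myc promoter with the 1662 kb stretch alone the ratio was 0.974 (0.901 to 1.05), and for the distal segment with the promoters of Mnt, Mxd4, Mxd1, Mycn and Max it lay between 0.986 and 1.02. All these intervals included 1, so no joint opening beyond that was detectable at this depth. Of 22 pairs computed, the interval excluded 1 in a single pair, the stretches at 1736 and 1666.5 kb, with 46 cells against 32.7 expected (1.40, 1.03 to 1.87). The share of cells itself followed depth. From the shallowest to the deepest quartile group of cells the Myc promoter went from 30.8% to 51.6% of cells and the distal segment from 56.3% to 78.4%, while in fragments per 1000000 nuclear fragments (FPM) the segment had 122.5, 121.5, 122.1 and 109.7.

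Whether the family is more open in cells that hold more RNA was asked next, since MYC is known to raise the total RNA of a cell. Cells were ranked by RNA UMIs, and the highest quartile group (907 cells, median 2810 UMIs) was set against the lowest (908 cells, median 1468), with fragments scaled to each group's nuclear fragments and called changed past a log2 ratio of 0.32 in either direction. No member reached that, 0 of 8, where 6.66% of all 17566 genes with at least 200 fragments did. Over the promoters 0 of the 7 members with enough fragments passed, against 7.84% of the 12225 promoters with at least 200. Over the distal stretches it was 0 of 3, against 15.9% of the 22668 open windows with at least 200. In these and later ratios, values for all genes, promoters or open windows cover only those with at least 200 fragments over both groups. The windows are single ones of 500 bp, while a stretch or the distal segment can join several, so the units differ. The RNA-high cells were also deeper (median 12115 against 9106.5 nuclear fragments), had a smaller share of fragments at gene starts (45.0% against 48.0%), and had more cells with excess overlapping fragments, a mark of doublets (22.3% against 1.43%). Summed over each marker list, the stem cell genes had 1256 FPM in RNA-high and 1289 in RNA-low cells, megakaryocyte genes 400.2 and 408.2, erythroid genes 155 and 156, myeloid genes 135 and 137, B cell genes 184 and 162, and T cell genes 149.6 and 154. The part these play in the values below was not tested.

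Myc had 101.2, 97.6, 94.2 and 94.2 FPM from the lowest to the highest RNA quartile group, a log2 ratio of −0.10 (−0.23 to 0.03). Mycn, at 82.1, 81.8, 85.8 and 82.3, was level across the quartile groups (0.00, −0.14 to 0.15). Mycl had 25.1, 21.3, 21.9 and 20.9, the lowest ratio of the family at −0.26 (−0.53 to 0.01), on 246 and 208 fragments. Mycl passed 0.32 without the deepest 5% of cells (−0.33), without cells with excess overlaps (−0.37) and after thinning to 6000 fragments per cell (−0.39), where 6.44%, 6.81% and 7.70% of all genes passed. For Myc the sign turned when cells were ranked by UMIs per ATAC fragment, to 0.06 (−0.08 to 0.20). Scaling by fragments at gene starts gave −0.01 (−0.14 to 0.12), a shift shared by all genes, whose median became 0.06.

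Max, the partner, had a ratio of −0.01 (−0.17 to 0.15). The intervals of 2 antagonists lay below 0, those of Mnt, at −0.22 (−0.29 to −0.14), and of Mxd1, at −0.21 (−0.34 to −0.08). The share of all genes with such an interval is not given here. Mnt went from 319.8 through 302.4 and 296.7 to 275.1 FPM, and Mxd1 from 105.9 through 94.8 and 96.0 to 91.4. Both had their highest level in the lowest RNA quartile group and their lowest in the highest. This turned with the ranking, and by UMIs per ATAC fragment Mnt had 0.10 (0.02 to 0.18) and Mxd1 0.13 (−0.01 to 0.27). Mxd4 (−0.04) and Mxi1 (−0.09) had intervals that included 0. In all, 7 of the 8 members were below 0 with a median of −0.10, where all genes had a median of −0.03 and all promoters −0.11. Of all genes, 58.0% were below 0, and of all promoters 75.8%. When cells were ranked by UMIs per ATAC fragment in place of UMIs, 1 of 8 was below 0, Mycl, and the median was 0.08. The median of all genes was then 0.02. This ranking reversed the difference in depth, with a median of 7765 nuclear fragments in the high and 11728 in the low group. Scaling by fragments at gene starts left 5 of 8 below 0 with a median of −0.01, where all genes had a median of 0.06. That scaling moves every gene by the same amount, so the place of the members among all genes did not change. With cells ranked by UMIs and thinned to 6000 fragments each, 7 of 8 were below 0. The median was then −0.14, against −0.04 for all genes. With either the deepest 5% of cells or the cells with excess overlaps left out, 8 of 8 were below 0. With at least 50 tags, 4 of 8 were. The direction for the family therefore depended on how the cells were ranked, and the rankings differed in depth in opposite ways. The part of depth in this was not tested.

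**Figure D4:**
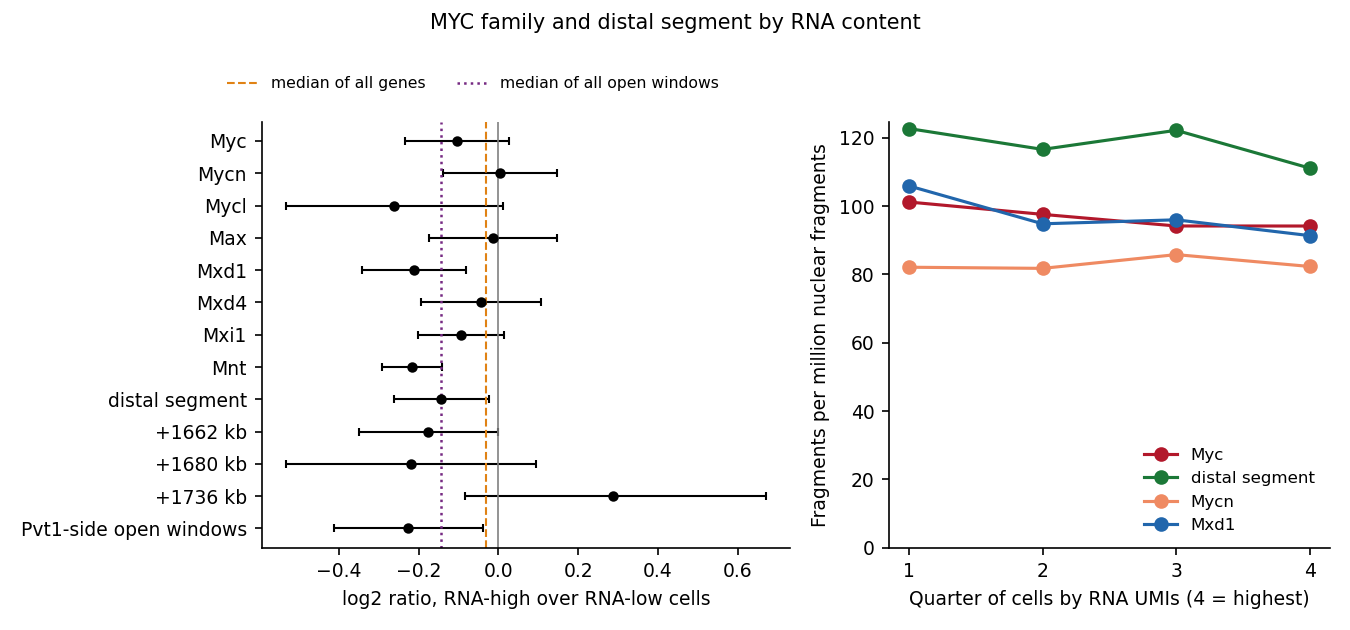
Left, log2 ratio of FPM in the 907 RNA-high over the 908 RNA-low cells for each member (gene and 2 kb upstream), the distal segment, its 3 strongest stretches and the open windows along Pvt1, with 95% counting intervals. Dashed and dotted lines are the medians of all genes (−0.03) and all single open windows (−0.15) with at least 200 fragments over both groups. Right, FPM in each quartile group of cells by RNA UMIs for Myc, Mycn, Mxd1 and the distal segment, which all stay within a narrow range, such as 94.2 to 101.2 for Myc.

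The distal segment had 122.7, 116.6, 122.2 and 111.1 FPM over the quartile groups, a ratio of −0.14 (−0.26 to −0.02) that sat at the median of all open windows, −0.15. The interval included 0 without cells with excess overlaps (−0.07, −0.20 to 0.06) and without the deepest 5% of cells (−0.08, −0.20 to 0.05). Scaling by fragments at gene starts gave −0.05 (−0.17 to 0.07), but it moves every window alike and so leaves the place of the segment among them unchanged. The stretch at 1662 kb had −0.18 (−0.35 to −0.00), and when cells were thinned to 6000 fragments each it had 0.02. The stretch at 1680 kb had −0.22 (−0.53 to 0.10). That at 1736 kb went the other way in value, 11.4, 10.8, 12.8 and 13.9 FPM, with a ratio of 0.29 (−0.08 to 0.67). This was above 98.2% of all open windows, which are single windows of 500 bp, while the stretch spans 1500 bp. The open windows along Pvt1 had −0.23 (−0.41 to −0.04). None of these passed 0.32. Of the stretches with under 200 fragments in both groups together, 2 had intervals below 0, that at 1666.5 kb (−0.52, −1.02 to −0.03, on 71 and 72 fragments) and that at 1719 kb (−1.10, −2.03 to −0.23, on 19 and 29). The share of all windows with such intervals is not given, here or for the antibodies below.

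Of the rest of the network, 0 of 5 genes passed 0.32, where 6.66% of all genes did, with a median of −0.11. The highest were Mlxipl (0.06), a glucose-responsive partner of MLX, and Mlxip (−0.11), and the lowest Mlx (−0.27), which links MXD proteins to those sensors, and Mga (−0.14), a MAX partner in a polycomb complex. Of 24 cofactors and genes for MYC stability, 0 passed against the same 6.66% of all genes, with a median of −0.06. Here the highest were Skp2 (0.28) and Huwe1 (0.18), both of ubiquitin ligases that mark MYC for turnover, and the lowest was the deacetylase gene Hdac2 (−0.19).

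Of 30 genes known to be induced by MYC, 0 were higher and 1 lower past 0.32, against the 6.66% of all genes, with a median of −0.07. The one that was lower was Dkc1, a gene for pseudouridine synthesis and telomerase assembly, at −0.48 (−0.69 to −0.26), followed by the methionine cycle gene Mat2a (−0.26). The telomerase gene Tert (0.28) and the pyrimidine synthesis gene Cad (0.24) had the highest values, with intervals that included 0. Of 5 genes repressed by MYC, 0 passed, from Cdkn1a (−0.25) and the stress gene Gadd45a (−0.07) to Cdkn2b (0.01) and Cdkn1b (0.21), the last of which encodes the p27 inhibitor of cell division. Promoters of the induced targets were open in a median of 35.2% of cells, from 3.47% for Ldha to 58.4% for Ncl, and 28 of the 30 were above 10%. The cofactors had a median of 32.6%, with Skp2 and Usp7 at 0.138% and 0.551% at their annotated starts and Gsk3b, the kinase that marks MYC for turnover, highest at 68.6%.

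The 4 antibodies that the study used to gate platelet-biased (PLT) and multi-lineage (MUL) stem cells are against CD61 (integrin beta 3), CD274 (PD-L1), CD357 (GITR) and CD27. Cells were split into those with the most and the fewest tags of each, as near to a quartile group as tied counts allowed. The tag-high cells had at least 6 (CD61), 27 (CD274), 5 (CD357) and 2 (CD27) raw tags. The tag-low cells had at most 1 (CD61), 12 (CD274), 1 (CD357) and 0 (CD27). No member passed 0.32 over its gene with any of the 4, 0 of 32 values, where all genes passed in 3.63% (CD61), 4.89% (CD274), 2.53% (CD357) and 2.12% (CD27). The groups held 779 against 727 cells for CD61, 937 against 877 for CD274, 968 against 1200 for CD357 and 825 against 1578 for CD27. In each, the tag-high group had more cells with excess overlaps, from 11.4% against 5.96% for CD27 to 13.6% against 5.23% for CD61. It also had more tags over all antibodies, from a median of 33 against 27 for CD27 to 46 against 17 for CD274. The part of these in the values was not tested.

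For Myc the ratios were −0.09 (CD61), −0.07 (CD274), 0.12 (CD357, 0.00 to 0.24) and 0.07 (CD27). Only the interval for CD357 lay above 0, and the other 3 included it. Its levels were 91.4 against 97.1 FPM for CD61, 92.4 against 97.2 for CD274, 100.7 against 92.6 for CD357 and 98.7 against 93.9 for CD27. Mycl was below 0 with all 4, lowest with CD274 at −0.28 (−0.56 to −0.01), or 20.5 against 24.9 FPM. Under the same 3 alternatives it passed with CD274 (−0.36, −0.35 and −0.32), where 5.05%, 4.91% and 5.83% of all genes did. Its sign did not hold throughout. With counts centred within each cell Mycl had 0.03 with CD27 and stayed below 0 with the rest. With at least 50 tags it had 0.40 with CD61 and stayed below 0 with the rest. Max was higher with CD274, at 0.19 (0.03 to 0.35). Mxi1 was lower with CD61, at −0.17 (−0.29 to −0.06), Mycn higher with CD27 at 0.14 (0.01 to 0.26), and Mnt higher with CD27 at 0.09 (0.02 to 0.16). These 6 were the only ones of the 32 intervals that excluded 0. The share of all genes with such an interval is not given here, so this count has no background.

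At promoters with at least 200 fragments, the counts past 0.32 were 0 of 7 members for CD61 (4.76% of all promoters), 1 of 7 for CD274 (5.93%), 0 of 8 for CD357 (3.04%) and 0 of 8 for CD27 (3.12%). The one was Mycl in CD274-high cells, with 138 against 161 fragments and a ratio of −0.37 (−0.71 to −0.03). Over the other 8 antibodies, several of which tagged few cells (71 cells with CD163, 82 with CD206), the ratio for the Myc gene ran from −0.20 (CD163) to 0.18 (CD68). At promoters, members passed 0.32 with 3 of these 8. With CD201 it was 1 of 8 members, where 2.69% of all promoters passed. This was Mycl, at 0.33 (0.07 to 0.58) on 200 fragments in 1119 tagged and 358 in 2510 untagged cells, opposite in sign to its value with CD274. Max and Mxd4 did not pass with CD201, but their intervals lay above 0 (0.01 to 0.30 and 0.02 to 0.26). With CD206 it was 4 of 8, where 34.6% of all promoters passed, namely Myc (−0.44), Mycn (−0.34), Max (0.37) and Mxi1 (−1.21). With CD163 it was 2 of 8, where 38.9% passed, namely Mycl (−0.35, on 8 fragments in tagged cells) and Mxi1 (0.48, on 9). The intervals of these 6 included 0.

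**Figure D5:**
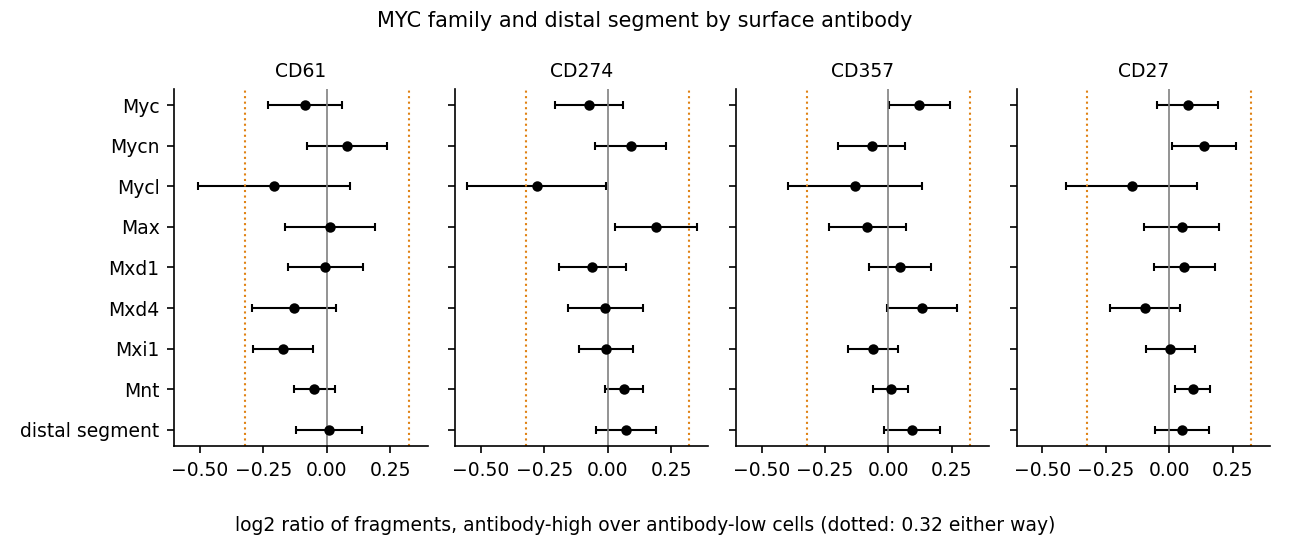
Each panel gives, for 1 antibody, the log2 ratio of FPM in tag-high over tag-low cells for the 8 members (gene and 2 kb upstream) and the distal segment, with 95% counting intervals; dotted lines mark 0.32 in either direction. All 36 points lie between the dotted lines, with Mycl in CD274-high cells nearest to one at −0.28.

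The distal segment was level with the 4 antibodies, with ratios of 0.01 (−0.12 to 0.14) for CD61, 0.07 (−0.05 to 0.19) for CD274, 0.09 (−0.02 to 0.20) for CD357 and 0.05 (−0.06 to 0.16) for CD27. The stretch at 1662 kb was between −0.05 and 0.00 with all 4. Over all 12 antibodies the segment ran from −0.16 (CD183) to 0.25 (CD163), and every interval included 0. The highest value of the 1662 kb stretch was 0.47 (0.05 to 0.84) with CD163, on 56 fragments in the 71 tagged cells. With CD163, 13785 of 47716 open windows were higher and 11414 lower past 0.32. Among the 3 stretches with at least 200 fragments, 0 passed for CD61 (7.06% of all open windows), 1 for CD274 (10.3%), 0 for CD357 (6.35%) and 0 for CD27 (6.59%). The stretch that passed was that at 1680 kb, with 21.0 FPM in CD274-high against 15.9 in CD274-low cells, or 0.40 (0.09 to 0.71). It was also higher in CD357-high cells, 0.31 (0.02 to 0.59). The open windows along Pvt1 were higher in CD274-high cells, with 56.0 against 43.5 FPM (0.36, 0.18 to 0.55), while the interval of Myc itself included 0. Over the 22334 open windows with at least 200 fragments, 1680 were higher and 627 lower past 0.32 in these cells, and 39.9% were below 0. The share of fragments in peaks was 67.8% against 65.3%. The part of this in the value along Pvt1 was not tested. Of the stretches with fewer fragments, 2 had intervals above 0 with these 4 antibodies. They were that at 1755 kb with CD61 (0.70, 0.09 to 1.34, on 66 and 35 fragments) and that at 1625.5 kb with CD27 (0.89, 0.11 to 1.68, on 30 and 29).

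Cells with CD61 and CD274 over their medians, but not CD357 and CD27, formed the PLT gate, and the reverse pattern formed the MUL gate. This gave 342 cells in the PLT gate and 61 in the MUL gate. Excess overlaps marked 7.02% of the first and 1.64% of the second, with a median of 37 against 26 tags, and the part of this in the values was not tested. Myc had 82.8 FPM in the first and 99.9 in the second (−0.28, −0.68 to 0.15), and the distal segment 118.9 and 138.3 (−0.22, −0.56 to 0.14). Max had 67.5 and 45.0 on 239 and 27 fragments (0.56, 0.01 to 1.22), the lower bound being close to 0. With these plain counts Max was the only member past 0.32 over its gene. With antibody counts first centred within each cell, which put 251 and 252 cells in the gates, the ratio was −0.29 (−0.55 to −0.04) for Myc, 0.21 (−0.11 to 0.53) for Max and 0.01 for the distal segment. For Myc the interval included 0 with the plain counts and lay below 0 with the centred ones. For Max it lay above 0 with the plain counts and included 0 with the centred ones. No member was past 0.32 over its gene with the centred counts. The share of all genes past 0.32, or with intervals that exclude 0, is not given for the gates.

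Over 16 groups of cells, made by crossing quartile groups of RNA UMIs with quartile groups of nuclear fragments, the genes whose log2 level was most like that of Myc were Foxo3 (Pearson r = 0.904), Tcf25 (0.882), Srd5a1 (0.881), Map3k3 (0.863) and Rps29 (0.862). Those most like the distal segment were Abca5 (0.848), 1700105P06Rik (0.832), Gm41335 (0.827), Grcc10 (0.826) and Stmn1 (0.818), of which Gm41335 contains most of the segment. The groups share 1 library and differ in depth by design, the smallest held 85 cells, and these were the highest of 12450 genes compared, so the values are descriptions of these groups.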

How the data were processed

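DOGMA-seq of LT-HSCs from 24-month-old mice gave 1 pool with 3 libraries (ATAC, RNA and antibody tags). The authors deposited ATAC fragments and per-barcode metrics from Cell Ranger ARC 2.0.2, the version being from the submitters' processing notes, and antibody tag counts. These deposited counts are raw and not normalized. The number of mice pooled and the version of the antibody counter are not given in sources used here. Of the RNA data only the UMI totals were used.

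Cells were barcodes of the antibody table with at least 10 tags. Over genes, promoters and transcript starts a fragment was counted where it overlapped the region. In windows and stretches it was counted where an end fell in them. Positions were on mm10 with GENCODE M21 gene models. Open windows, depth scaling and the fold call with at least 200 fragments over both groups are given with the results, and log2 ratios used a pseudocount of 0.5. Intervals were exact Poisson, binomial or conditional binomial at 95%, and with 1 pool there was no test. Doublets were not removed. An alternative left out 264 cells with excess overlapping fragments, and others changed depth, tag minimum, scaling, thresholds and thinning. The transcript-start alternative was chosen after seeing the data. The genes named were the 8 members, the distal stretches and highest downstream windows, neighbouring genes, the 2 highest and 2 lowest of each list (1 of them is not reported here), and the 5 most alike genes. Others, such as single markers, Fam84b and the genes with the lowest and highest promoter shares, were named after their values were seen. Members and lists were chosen with earlier results of these data known. Scripts were tested on simulated data. Python 3.11.15, numpy 2.4.6, scipy 1.17.1, pandas 2.3.3, statsmodels 0.14.6, numba 0.67.0 and matplotlib 3.10.9 were used.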

Additional observations from a re-analysis of the deposited data

Results flagged for a closer look

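Barcodes that were not called as cells, which enter no comparison above, held 337 fragments in the open windows of the distal Myc segment, or 121 per 1000000 of their fragments (108 to 134), against 118 in the kept cells. In the closed interval from 302.5 to 1616 kb downstream of Myc the same barcodes had 154 against 80.4. Called cells without antibody counts, also outside the comparisons, held 149 fragments in the segment, or 116 (98.3 to 136). Both were singled out because signal was present in data that the comparisons did not use.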

How the results depend on the processing

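Over the alternatives tried, 449 values stayed within their counting interval or, for counts, close to the value reported, and 90 moved further. Apart from the gates, no value that was past a log2 ratio of 0.32 as reported changed sign. From the plain to the centred gates the Max promoter went from 0.34, on 160 and 21 fragments, to −0.04. The stretch at 1786 kb went from −1.12, on 9 and 3 fragments, to 0.06. Values under 0.32 changed sign too, such as those of Mnt and Mxd1 against RNA UMIs per ATAC fragment and that of the Mxi1 promoter against RNA content, which was 0.02 as reported and −1.34 (−2.62 to −0.14) with at least 50 tags. With at least 50 tags per cell, the members' median promoter share was 43.8% in place of 41.2%, the distal segment was open in 74.7% of cells in place of 68.2%, 4 members were below 0 against RNA content in place of 7, the segment ratios were −0.32 (CD61), −0.077 (CD274) and 0.24 (CD27), and 6 of the 32 member and antibody pairs passed a log2 ratio of 0.32 in place of 0. None of these 6 had 200 fragments, and of the genes that did, 8.33% to 9.80% passed. Promoters of 500 bp each side gave a median of 35.7%. Open windows downstream of Myc numbered 85 at 1% of cells and 18 at 5%, in place of 40. Ranking by RNA UMIs per ATAC fragment, which reversed the difference in depth, put the segment at −0.0020 in place of −0.14 and left 1 member below 0. Without the deepest 5% of cells, without cells with excess overlaps and after thinning to 6000 fragments, 1 member, Mycl, passed 0.32 against RNA content in place of 0, and 1 of the 32 pairs, Mycl with CD274, passed in each, where 6.44% to 7.70% and 4.91% to 5.83% of all genes did. Counting genes with at least 20 fragments raised the share of all genes past 0.32 from 6.66% to 18.2%. The causes were not tested. No paired analysis was possible because the series holds 1 pool and no replicates. With 1 pool, spread between animals cannot be given, and stretches with under 200 fragments have wide intervals.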
